A study of Mus musculus with 5 samples.

Results

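The genes described here are 10 that mark lipid-associated macrophages, a macrophage state known from fat tissue, atherosclerotic plaques and tumours: Trem2, Spp1, Gpnmb, Apoe, Lpl, Fabp5, Cd9, Cd63, Lgals3 and Cd36. They were taken by symbol from a given list, and all 10 were found among the 24860 gene symbols measured. Single cells of tumours grown from SSM2, a mouse mammary tumour cell line, were sequenced from mice carrying a pellet of progesterone, the steroid ligand of the progesterone receptor, or a placebo pellet. All groups shared the same host treatment: at 10 to 12 weeks of age each mouse received 100000 SSM2 cells in a mammary gland on its left side, the pellet (60 mg, releasing over 60 days) lay under the skin of the neck, and tumours were taken 28 to 62 days later. The strain is not given in the sources used here, and host and tumour cells were sequenced together. Batch 1 held Progesterone 1 and Placebo 1, and batch 2 held Progesterone 2, Progesterone 3 and Placebo 2. The sources do not tie the 5 libraries to separate animals. In the deposited names, Progesterone 2 and Progesterone 3 carry one common identifier with an added L or R and may be tumours of 1 animal. The p-values below therefore reflect spread between libraries, part of which may be technical.

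Lipid-associated macrophages take up lipoproteins, dead cells and membrane debris, break them down in lysosomes and export the cholesterol. The state is switched on through TREM2, a surface receptor for lipids and apolipoproteins that signals through TYROBP and SYK. Its gene set joins the receptor to secreted proteins (SPP1 or osteopontin, APOE, the lipase LPL), fatty acid handling (CD36 at the surface, FABP5 inside), lysosome and vesicle membrane proteins (GPNMB, CD63, CD9) and the sugar-binding protein galectin-3, encoded by Lgals3.

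Libraries held 2241 to 5857 barcodes and 23409215 to 204786073 unique molecular identifiers (UMIs, 1 per captured transcript), and 2192 to 5583 cells per library were kept. Macrophages, named from marker genes that exclude the 10, numbered 340, 1006 and 642 in Progesterone 1, 2 and 3, against 16 and 638 in Placebo 1 and 2. All 10 macrophage markers had UMIs in the macrophages of every library, with a summed level of 5111, 12704 and 11705 CPM (a gene's UMIs relative to all UMIs of the class in that library, on the usual library-size scale) with progesterone and 4095 and 10317 with placebo. Placebo 1 had 16 macrophages, nearly all monocyte-like, so the log2 ratios of the 10 genes in macrophages are also given without it. Progesterone 1 then has no placebo partner, and such fits set Progesterone 2 and 3 against Placebo 2 alone. T cells were 4158 of the 4744 cells kept in Placebo 1, and 1 cell was named epithelial. In Progesterone 1, 457 of 2192 cells were T cells and 63 were epithelial. In Placebo 2, 129 of 5583 cells were T cells and 2866 were epithelial, so the libraries differed in cell makeup. Pairs of libraries shared 2 to 12 barcodes.

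The coding loci lie on 8 mouse chromosomes of the GRCm38 build: Trem2 at chr17:48346401-48354147, Spp1 at chr5:104435118-104441050, Gpnmb at chr6:49036546-49070929, Apoe at chr7:19696109-19699188, Lpl at chr8:68880491-68907448, Fabp5 at chr3:10012548-10016607, Cd9 at chr6:125460266-125494791, Cd63 at chr10:128900989-128912822, Lgals3 at chr14:47367751-47386160 and Cd36 at chr5:17781690-17888801. Promoter windows of 300 bases run from 250 bases before the RefSeq start to 50 after it (GRCm38.p6). They are shown for Trem2 and Cd9, which passed the test in macrophages as a whole, and for Spp1 and Gpnmb, picked by name. Spp1 and Gpnmb passed within a macrophage state, as did Apoe, Lpl, Fabp5 and Cd36. Capitals mark the AP-1 motif TGANTCA.
Trem2 promoter, chr17:48346151-48346450, plus strand: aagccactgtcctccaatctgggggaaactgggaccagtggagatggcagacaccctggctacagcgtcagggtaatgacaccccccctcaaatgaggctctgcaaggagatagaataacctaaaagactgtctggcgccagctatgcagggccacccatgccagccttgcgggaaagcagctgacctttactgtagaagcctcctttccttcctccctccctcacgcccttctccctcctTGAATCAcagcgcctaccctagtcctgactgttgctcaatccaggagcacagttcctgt
Gpnmb promoter, chr6:49036268-49036567, plus strand: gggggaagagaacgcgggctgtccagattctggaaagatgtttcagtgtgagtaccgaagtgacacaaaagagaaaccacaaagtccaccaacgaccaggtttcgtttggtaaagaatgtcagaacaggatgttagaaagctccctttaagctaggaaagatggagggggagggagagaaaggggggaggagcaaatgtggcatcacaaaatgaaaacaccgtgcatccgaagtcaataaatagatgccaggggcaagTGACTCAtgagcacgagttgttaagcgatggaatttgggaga
Spp1 promoter, chr5:104434861-104435160, plus strand: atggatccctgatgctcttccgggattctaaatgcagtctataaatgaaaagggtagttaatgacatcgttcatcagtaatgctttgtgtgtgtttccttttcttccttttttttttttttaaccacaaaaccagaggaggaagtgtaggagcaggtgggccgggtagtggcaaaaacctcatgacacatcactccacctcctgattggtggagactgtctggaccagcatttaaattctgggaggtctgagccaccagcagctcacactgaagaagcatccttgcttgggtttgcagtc
Cd9 promoter, chr6:125494711-125495010, minus strand: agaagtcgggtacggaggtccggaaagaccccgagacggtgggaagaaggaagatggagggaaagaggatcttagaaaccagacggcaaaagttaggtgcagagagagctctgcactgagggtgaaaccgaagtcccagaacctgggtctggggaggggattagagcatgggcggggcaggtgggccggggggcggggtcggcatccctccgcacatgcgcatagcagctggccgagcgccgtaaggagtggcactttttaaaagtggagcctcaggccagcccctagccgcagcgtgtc
On either strand, the Trem2 window held 1 AP-1 match whose first base lies at -9 from the start, and the Gpnmb window held 1 at 8, while the Spp1 and Cd9 windows held none of the 3 motifs searched. Of 32851 promoter windows of this length, 7.81% held the AP-1 motif, 7.15% the E-box CACGTG and 3.77% the M-box TCATGTG, and no overlap between the motifs was found in these windows. A match is a description of letters, not a bound site. The windows of Apoe, Cd36, Cd63 and Lgals3, and of a further Spp1 start, held none of the 3 motifs and are not shown. Lpl and Fabp5 were not shown because no window was at hand for them.

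Of the 10 genes, 6 had their highest median level over libraries in macrophages: Trem2, Spp1, Gpnmb, Apoe, Fabp5 and Lgals3. Trem2 reached 191, 483 and 427 CPM in the macrophages of Progesterone 1, 2 and 3 and 86.6 and 247 CPM in those of Placebo 1 and 2. The next class, conventional dendritic cells, had 9.80, 18.8 and 14.0 CPM with progesterone and 0 and 5.28 CPM with placebo, so the ranges of these classes did not overlap. Macrophages, held 81.4%, 94.4% and 94.6% of all Trem2 UMIs with progesterone and 51.0% and 92.2% with placebo. Lgals3 was the other gene whose macrophage range stood clear of the next class, at 1180.0 to 2139 CPM against 236 to 706 CPM in conventional dendritic cells.

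**Figure D1:**
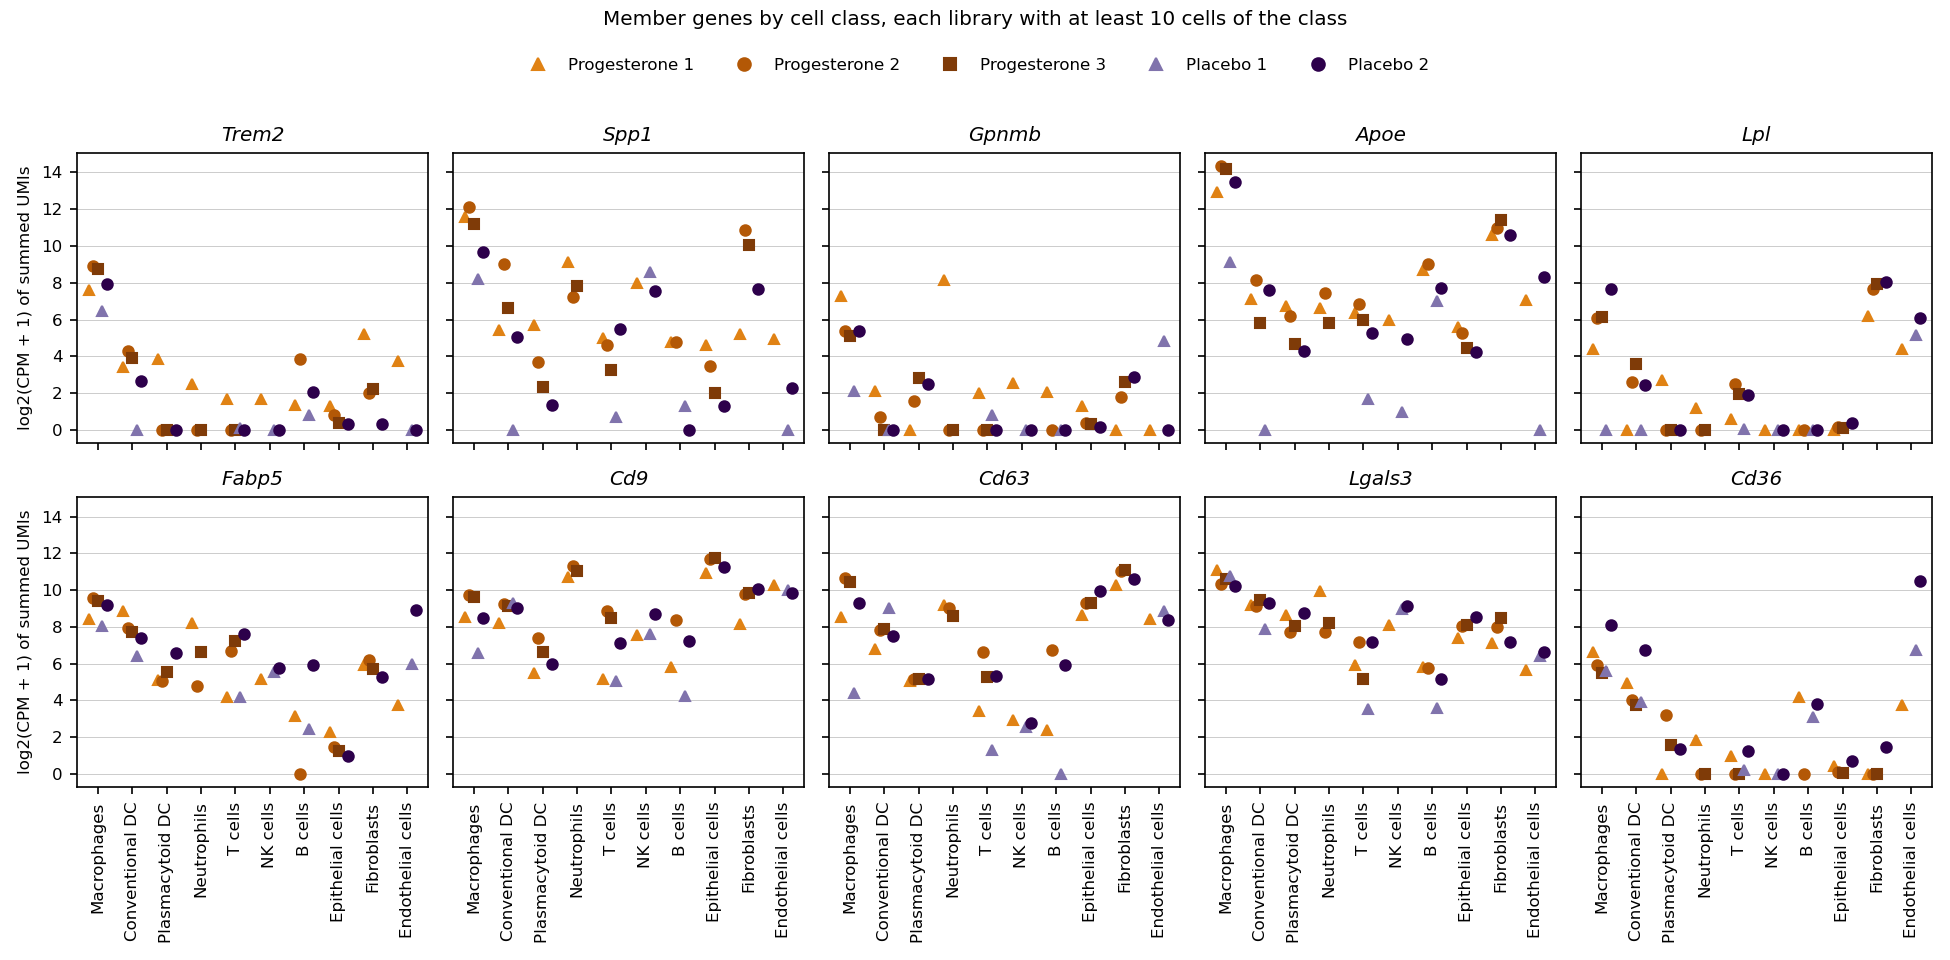
Level of each gene (log2 of CPM + 1) by cell class, with 1 point per library of at least 10 cells of the class, Progesterone libraries left of Placebo libraries. Trem2 is highest in macrophages, clear of the next class, Cd9 is highest in epithelial cells and Lpl and Cd63 in fibroblasts.

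The other 4 genes were higher elsewhere. Cd9, a tetraspanin of membrane microdomains, had its highest median in epithelial cells, the tumour cells among them, at 2841 CPM (range 1933 to 3460 CPM), and macrophages held 17.8%, 1.99% and 1.08% of its UMIs in Progesterone 1, 2 and 3 and 1.36% and 0.819% in Placebo 1 and 2. Cd63, a tetraspanin of lysosomes and exosomes, had a median of 1823 CPM in fibroblasts (1254 to 2155 CPM), against 635 CPM in macrophages (20 to 1583 CPM). Lpl, the secreted lipase that frees fatty acids from lipoproteins, had a median of 224 CPM in fibroblasts (73.0 to 261 CPM) and 67.0 CPM in macrophages (0 to 204 CPM), ranges that overlapped. Cd36, the scavenger receptor for oxidised lipoproteins and fatty acids, had its highest median in endothelial cells at 105 CPM, with a range of 12.3 to 1424 CPM over 3 libraries that took in the whole macrophage range. In these tumours the list therefore mixed genes that macrophages supplied with genes that tumour, stromal or endothelial cells carried at higher levels.

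Other classes also supplied some of these genes. Gpnmb, a lysosomal membrane glycoprotein, had 426 UMIs in the neutrophils of Progesterone 1 (279 CPM, in 43 of 330 cells) and 0 UMIs in the neutrophils of the other 4 libraries, of which Progesterone 2 and 3 had 25 and 29 such cells. In macrophages Gpnmb had 155, 40.8 and 33.2 CPM with progesterone and 3.33 (1 UMI) and 41.2 CPM with placebo. Spp1, a secreted matrix protein that binds integrins and CD44, had 256 CPM in the NK cells of Progesterone 1, against 382 and 187 CPM in those of Placebo 1 and 2. NK cells held 1.97% of all Spp1 UMIs in Progesterone 1, and 67.7% and 0.321% in Placebo 1 and 2, where macrophages of Placebo 1 held 89 of 1148. In Placebo 1, 1 of 129 NK cells held 372 of their 777 Spp1 UMIs, and that library had 16 macrophages.

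Macrophages fell into 5 clusters when grouped without the 10 genes. Clusters 1 and 4 were high in the complement genes C1qa, C1qb and C1qc and low in Mrc1, the mannose receptor (C1q-high below). Cluster 1 was led by Apoe, Mertk and Ms4a7, and cluster 4 by the cytokine genes Il1a and Il1b. Cluster 2 was high in Mrc1, F13a1 and Retnla (the Mrc1 state), cluster 0 was monocyte-like, led by Ly6c2, Chil3 and Plac8, and cluster 3 was cycling. Differences between clusters of the same cells are descriptions with no test.

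Apoe, the apolipoprotein that carries exported cholesterol, had 22843, 26109 and 25784 CPM in C1q-high cells of Progesterone 1, 2 and 3 and 31414 CPM in those of Placebo 2. In the Mrc1 state it had 739 and 778 CPM in Progesterone 2 and 3 and 1889 CPM in Placebo 2, and in monocyte-like cells 1645, 3312 and 2726 CPM with progesterone and 621 and 5114 CPM with placebo. C1q-high cells thus had the highest Apoe level of these 3 states in each library that had them. In batch 2, Trem2, Spp1, Gpnmb, Cd63, Cd9, Fabp5 and Lgals3 were likewise each higher in C1q-high cells than in the Mrc1 state in all 3 libraries. Trem2 had 576 and 542 CPM in C1q-high cells of Progesterone 2 and 3 and 584 CPM in those of Placebo 2, against 122, 117 and 87.1 CPM in the Mrc1 state of the same libraries. Gpnmb was nearly absent from the Mrc1 state, with 0 and 2 UMIs in Progesterone 2 and 3 and 3 UMIs in Placebo 2. In the monocyte-like cells of Progesterone 1, Spp1 was higher than in C1q-high cells, at 3520.0 and 2270 CPM.

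Lpl and Cd36 had another order. In the Mrc1 state Lpl had 332 and 219 CPM in Progesterone 2 and 3 and 259 CPM in Placebo 2, and Cd36 had 229 and 161 CPM in Progesterone 2 and 3 and 307 CPM in Placebo 2. In C1q-high cells Lpl had 46.4 and 55.3 CPM in Progesterone 2 and 3 and 217 CPM in Placebo 2, and Cd36 had 50.5 and 27.2 CPM in Progesterone 2 and 3 and 316 CPM in Placebo 2. Both genes were thus highest in the Mrc1 state of the progesterone libraries of batch 2, while in Placebo 2 the level in C1q-high cells was near that in the Mrc1 state. Fabp5, a cytosolic fatty acid carrier, and Lgals3 were present in every state, Lgals3 at 608 to 2328 CPM over the clusters and libraries of at least 20 cells.

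**Figure D2:**
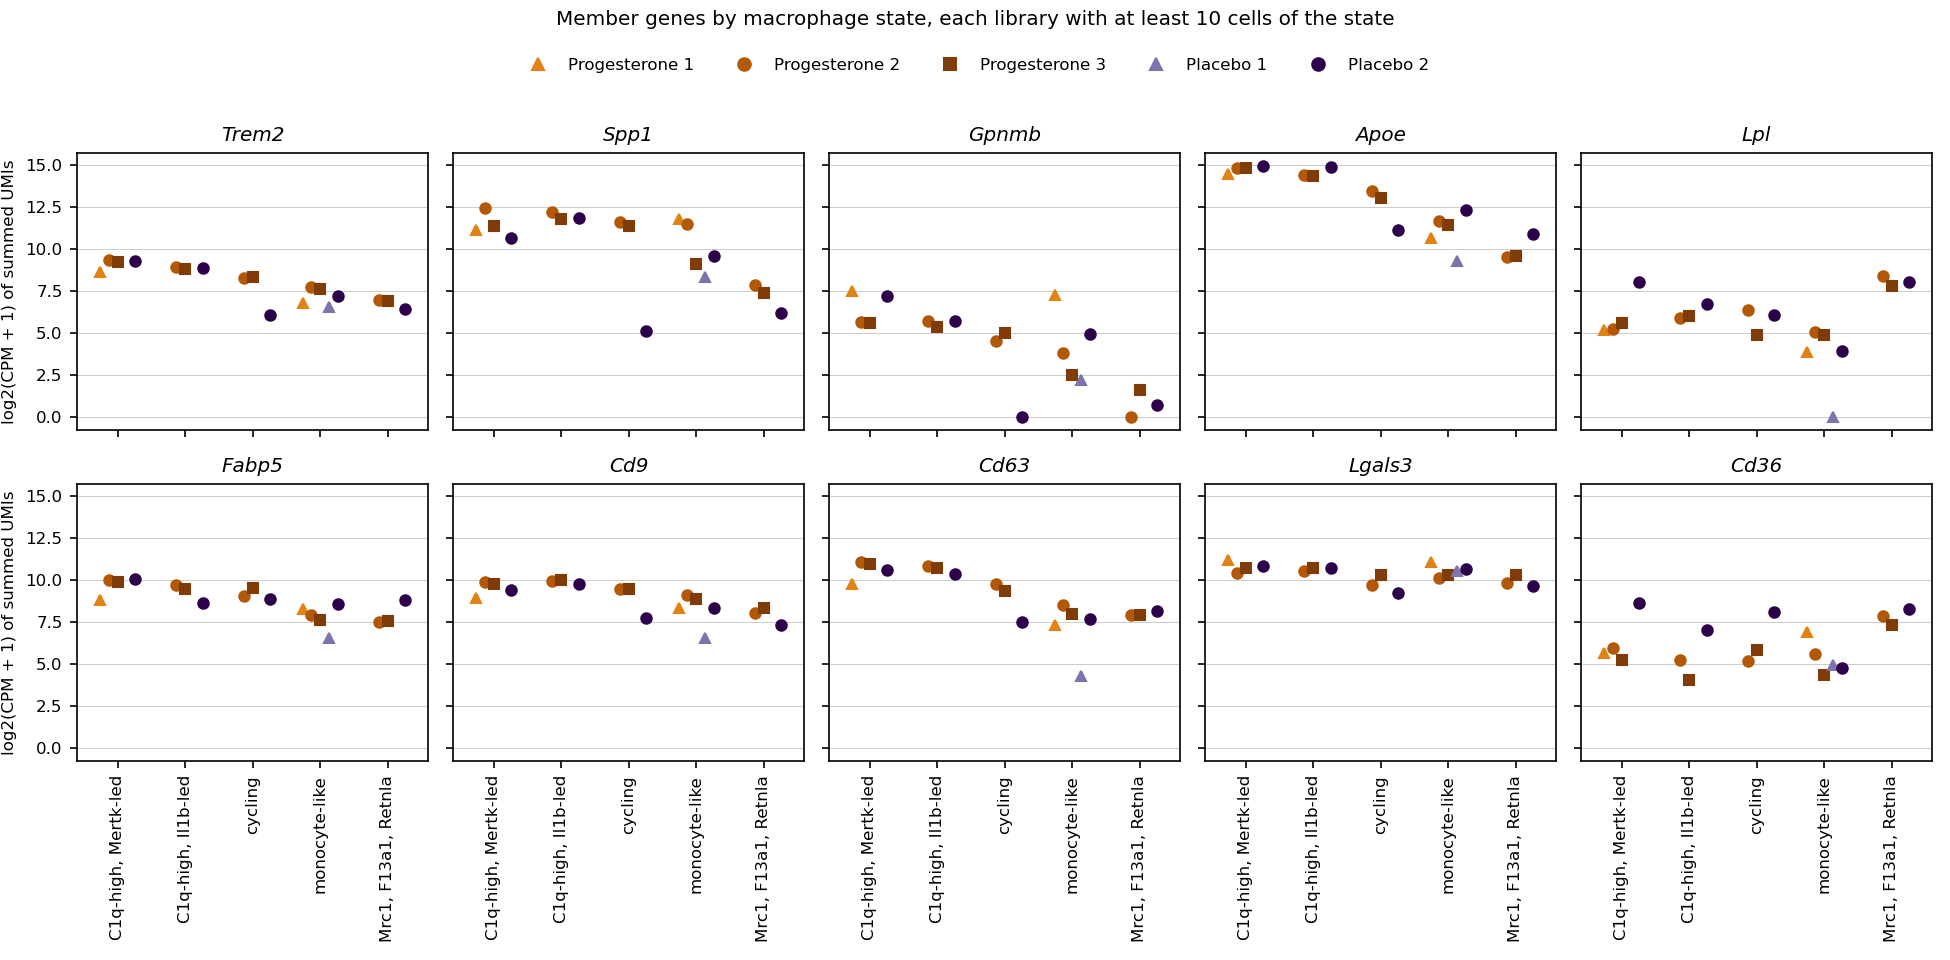
Level of each gene (log2 of CPM + 1) by macrophage cluster, with 1 point per library of at least 10 cells of the cluster, Progesterone libraries left of Placebo libraries. Apoe, Trem2 and Cd63 are highest in the C1q-high clusters, Spp1 likewise except in Progesterone 1, and Lpl and Cd36 in the Mrc1 cluster of Progesterone 2 and 3. Placebo 1 has a point for monocyte-like cells alone.

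The comparison of progesterone with placebo asks whether these genes differed in macrophages with the hormone. In macrophages as a whole, 2 of the 10 genes passed the test and both were higher with progesterone, Cd9 and Trem2 (edgeR quasi-likelihood test with batch as a covariate, Benjamini-Hochberg adjusted p under 0.05 over all genes). Of 11851 genes tested 1.10% passed, 0.447% higher and 0.650% lower with progesterone. The log2 ratios of the 10 had a median of 0.81, against 0.03 over all genes tested.

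Cd9 had 372, 846 and 775 CPM in macrophages of Progesterone 1, 2 and 3, against 93.3 and 359 CPM in Placebo 1 and 2. Each progesterone library was higher than the placebo library of its own batch, and over both batches the lowest progesterone library lay just above the highest placebo library. Its log2 ratio was 1.46 (SE 0.22, adjusted p = 0.0075), and within batches it was 1.98 in batch 1 and 1.26 and 1.14 in batch 2. The Placebo 1 level behind the batch 1 ratio rests on 28 UMIs, 21 of them in 1 of 16 cells. Cd9 is also highest in epithelial cells, and epithelial markers summed to 123, 798 and 692 CPM in the macrophages of Progesterone 1, 2 and 3 and to 30 and 1059 CPM in those of Placebo 1 and 2, with Krt5 and Krt14 at 0 throughout. Scaled by that marker level, epithelial RNA would amount to 12.6, 136 and 119 CPM of Cd9 in Progesterone 1, 2 and 3 and to 88.0 CPM in Placebo 2, which leaves 359, 710.1 and 656 CPM with progesterone and 271 CPM in Placebo 2. T cells of the same libraries had 34.8, 462 and 355 CPM of Cd9 with progesterone and 32.4 and 138 CPM with placebo, of which epithelial RNA scaled the same way would be 44.0%, 68.6% and 60.9% with progesterone and 73.7% in Placebo 2. The part of tumour RNA in the Cd9 difference was not tested.

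Trem2 passed with a log2 ratio of 0.97 (SE 0.20, adjusted p = 0.0427). All 3 progesterone libraries were higher than the placebo library of their batch, by 1.12 in batch 1 and by 0.99 and 0.82 in batch 2 on the log2 scale, but Progesterone 1 (191 CPM) lay below Placebo 2 (247 CPM), so the groups overlapped. The Placebo 1 level rests on 26 Trem2 UMIs, 9 of them in 1 of 16 cells. Trem2 lost its call without Progesterone 2 (log2 ratio 0.94, adjusted p = 0.242), without Progesterone 3 (1.04, adjusted p = 0.077), and with sums thinned to one depth (0.95, adjusted p = 0.144). Both genes lost it without the batch term (Trem2 1.09, Cd9 1.51, adjusted p = 0.961 for both) and when doublets were kept (Trem2 1.14, adjusted p = 0.139, and Cd9 1.61, adjusted p = 0.123). Without Placebo 1 the log2 ratio was 0.90 for Trem2 and 1.19 for Cd9, with Progesterone 2 and 3 set against Placebo 2 alone.

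Spp1 had 3028, 4445 and 2313 CPM in macrophages of Progesterone 1, 2 and 3 and 297 and 819 CPM in Placebo 1 and 2, so the groups did not overlap. The log2 ratio of 2.55 (SE 0.54) was the largest of the 10 but did not pass in edgeR (adjusted p = 0.205), while it passed in DESeq2 (2.56, adjusted p = 2.1e-06). In edgeR it also passed without Progesterone 2 (2.39, adjusted p = 2.5e-13) and without Progesterone 3 (2.88, adjusted p = 1.4e-26). Those fits hold 1 library per treatment and batch. With 1 residual degree of freedom their p-values say little about spread between libraries, and the ratio is given there as a description. Without Placebo 1 it was 2.06 (adjusted p = 0.324). In Placebo 1 the 297 CPM came from 89 UMIs, 86 of them in 1 of 16 cells, and in Progesterone 1 a single cell gave 15.6% of the Spp1 UMIs.

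Apoe had 7815, 20624 and 18335 CPM in macrophages of Progesterone 1, 2 and 3 and 566 and 11490 CPM in Placebo 1 and 2, and Cd63 had 364, 1583 and 1361 CPM with progesterone and 20 and 635 CPM with placebo. Both were higher with progesterone within each batch, but Progesterone 1 lay below Placebo 2 for both genes. The Placebo 1 level of Apoe rests on 170 UMIs, 140 of them in 1 of 16 cells. Neither passed over all libraries (Apoe log2 ratio 1.88, SE 1.07, adjusted p = 0.589, and Cd63 1.91, SE 0.72, adjusted p = 0.415). In DESeq2 Cd63 did pass (2.15, adjusted p = 0.0135). In batch 2 alone the log2 ratio was 0.78 for Apoe and 1.23 for Cd63, in a fit of 2 progesterone libraries against 1 placebo library. The fit without Placebo 1 rests on the same contrast and gave 0.78 and 1.23, so it is no separate check.

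Lpl had 20.3, 67.0 and 69.4 CPM in macrophages of Progesterone 1, 2 and 3 and 0 and 204 CPM in Placebo 1 and 2, where a count of 0 among 300135 UMIs allows up to 10.0 CPM. Cd36 had 96.7, 60.5 and 44.4 CPM with progesterone and 46.6 (14 UMIs) and 272 CPM with placebo. For both genes Placebo 2 was the highest library and the direction turned between batches: Cd36 was 1.04 higher in batch 1 and 2.14 and 2.58 lower in batch 2 on the log2 scale. Neither passed (Lpl log2 ratio -1.10, SE 0.68, adjusted p = 0.582, and Cd36 -1.42, SE 0.94, adjusted p = 0.621). Without Placebo 1 the ratios were -1.56 for Lpl and -2.34 for Cd36, with Progesterone 2 and 3 set against Placebo 2 alone. Without Placebo 2 both turned positive, at 6.15 for Lpl and 1.07 for Cd36.

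Fabp5, Lgals3 and Gpnmb had log2 ratios of 0.34 (SE 0.18, adjusted p = 0.413), 0.29 (SE 0.16, adjusted p = 0.433) and 0.64 (SE 0.97, adjusted p = 0.836). Fabp5 ranged from 338 to 763 CPM with progesterone, against 267 and 571 CPM with placebo, and Lgals3 from 1294 to 2139 CPM with progesterone, against 1716 and 1180.0 CPM with placebo. For all 3 genes the groups overlapped, and Gpnmb changed sign without Placebo 1 (-0.13) and without Progesterone 1 (-0.14), and reached 5.44 without Placebo 2. Without Placebo 1, Fabp5 was 0.34 (adjusted p = 0.175) and Lgals3 0.28 (adjusted p = 0.286).

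The macrophage clusters were present in different shares, and the level of a gene over all macrophages follows both. In batch 2, cluster 1 made up 42.4% and 40.5% of macrophages in Progesterone 2 and 3 and 21.8% in Placebo 2, and cluster 4 made up 31.8% and 28.8% in Progesterone 2 and 3 and 10.7% in Placebo 2. The Mrc1 state made up 6.86% and 11.1% in Progesterone 2 and 3 and 46.9% in Placebo 2. In batch 1 monocyte-like cells were 69.4% of macrophages in Progesterone 1 and 93.8% in Placebo 1, where 1 cell was C1q-high. C1q-high cells were therefore a larger share of macrophages in each progesterone library than in the placebo library of its batch.

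**Figure D3:**
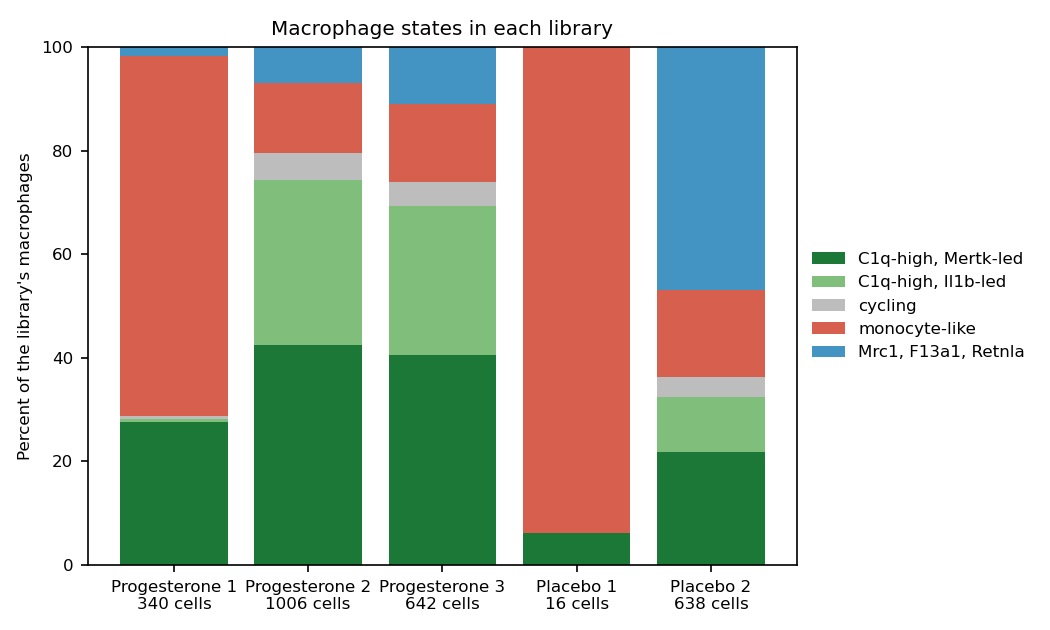
Share of macrophages (percent) in each of the 5 clusters, with 1 stacked bar per library, Progesterone libraries left of Placebo libraries. Progesterone 2 and 3 are mostly C1q-high, Placebo 2 has 46.9% in the Mrc1 state and Placebo 1 is 15 monocyte-like cells of 16.

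The 3 libraries of batch 2 were compared again with each cluster given the weight it has in Placebo 2, a calculation added after the data were seen and given with no test. The mean log2 ratio of Progesterone 2 and 3 over Placebo 2 was 0.88 for Trem2 with each library's own clusters and 0.21 at the Placebo 2 makeup, 0.76 and -0.23 for Apoe, and 1.21 and 0.36 for Cd63. For Cd9 it was 1.17 and 0.60, and for Spp1 1.97 and 1.04. Cd36 had -2.39 with own clusters and -1.23 at the Placebo 2 makeup, while Gpnmb had -0.16 and -1.17. The differences of Spp1, Cd9 and Cd36 were thus smaller at the fixed makeup and kept their direction, that of Gpnmb was larger, and Trem2, Apoe, Cd63, Lpl (-0.37), Fabp5 (-0.37) and Lgals3 (0.05) were within 0.4 of 0.

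Within C1q-high cells, Spp1 was higher with progesterone, and Gpnmb, Lpl and Cd36 were lower, while the other 6 genes did not pass. Of 11241 genes tested 4.38% passed, 1.91% higher and 2.46% lower with progesterone. With batch as a covariate this fit sets Progesterone 2 and 3 against Placebo 2 alone (1 residual degree of freedom), taking the single placebo library to vary as the other libraries do. Spp1 had 5228 and 3027 CPM in Progesterone 2 and 3 and 2201 CPM in Placebo 2 (log2 ratio 0.92, SE 0.22, adjusted p = 0.0020). Both progesterone libraries were above Placebo 2, but Progesterone 1 of the other batch, at 2270 CPM, was not far from it, and the call was lost in DESeq2 (0.92, adjusted p near 1).

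Gpnmb had 50.8 and 44.8 CPM in C1q-high cells of Progesterone 2 and 3 and 120 CPM in those of Placebo 2 (log2 ratio -1.30, SE 0.20, adjusted p = 1.2e-08), and 180 CPM in Progesterone 1. Progesterone 1 of the other batch thus lay above Placebo 2 for Gpnmb, but this rests largely on 1 cell. In cluster 1, a single cell of 94 gave 178 of the 318 Gpnmb UMIs in Progesterone 1, and 1 of 139 gave 83 of 297 in Placebo 2. In Placebo 2 a single cell gave 22.1% of the macrophages' Gpnmb UMIs. Lpl fell to the levels given above, with 34.9 CPM in Progesterone 1 (log2 ratio -2.08, SE 0.19, adjusted p = 5.4e-25), and Cd36 fell likewise, with 47.9 CPM in Progesterone 1 (-2.97, SE 0.19, adjusted p = 5.4e-43). For Lpl and Cd36 all 3 progesterone libraries lay below Placebo 2. Few cells carried Lpl: in cluster 1 a single cell held 15.0% and 69.2% of its UMIs in Progesterone 2 and 3 and 24.2% in Placebo 2, where 14 of 139 cells held 97.0%. All 4 calls were lost without the batch term (smallest adjusted p = 0.304), and Cd36 lost its call when cells needed 500 genes (-3.01, adjusted p = 0.366).

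Fibroblasts carry Lpl and endothelial cells carry Cd36, and their markers were also counted in the C1q-high cells. Fibroblast markers summed to 9.02, 19.6 and 16.6 CPM in Progesterone 1, 2 and 3 and to 55.2 CPM in Placebo 2, against 38677 CPM in the fibroblasts of Placebo 2, whose own Lpl level was 261 CPM. Endothelial markers summed to 45.1, 11.1 and 10.1 CPM in Progesterone 1, 2 and 3 and to 19.4 CPM in Placebo 2, with Cldn5 at 0 in all 4 libraries. Markers of the Mrc1 state summed to 1280.2, 802 and 564 CPM with progesterone and 1119 CPM in Placebo 2, and their part in the Lpl and Cd36 differences was not tested.

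The 6 genes that did not pass in C1q-high cells had small ratios. Trem2 had a log2 ratio of -0.05 (SE 0.20, adjusted p = 0.943), Apoe of -0.26 (SE 0.23, adjusted p = 0.650), Fabp5 of 0.03 (SE 0.20, adjusted p = 0.975) and Lgals3 of -0.18 (SE 0.21, adjusted p = 0.759). Cd9 (0.38, SE 0.20, adjusted p = 0.352) and Cd63 (0.39, SE 0.21, adjusted p = 0.357) were higher in both progesterone libraries of batch 2 without passing. Trem2, which passed over all macrophages, thus differed little between treatments within the cells that carry most of it, with a log2 ratio of 0.03 in Progesterone 2 and -0.08 in Progesterone 3 over Placebo 2.

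In the Mrc1 state, Spp1 and Cd9 were higher with progesterone and Apoe and Fabp5 were lower, among 9 genes tested. Of 7894 genes tested 5.33% passed, 2.42% higher and 2.91% lower with progesterone. Spp1 had 234 and 165 CPM in Progesterone 2 and 3 and 72.4 CPM in Placebo 2 (log2 ratio 1.56, SE 0.26, adjusted p = 3.3e-07), and Cd9 had 263 and 324 CPM in Progesterone 2 and 3 and 157 CPM in Placebo 2 (1.01, SE 0.24, adjusted p = 0.0018). Apoe had 739 and 778 CPM in Progesterone 2 and 3 and 1889 CPM in Placebo 2 (-1.21, SE 0.21, adjusted p = 1.1e-06), and Fabp5 had 179 and 186 CPM in Progesterone 2 and 3 and 441 CPM in Placebo 2 (-1.16, SE 0.23, adjusted p = 3.8e-05). For these 4 genes both progesterone libraries lay on the same side of the single placebo library.

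Trem2 (0.56, SE 0.26, adjusted p = 0.259), Lgals3 (0.55, SE 0.22, adjusted p = 0.152) and Cd36 (-0.55, SE 0.23, adjusted p = 0.174) did not pass in the Mrc1 state, nor did Lpl (0.19, SE 0.24, adjusted p = 0.779) and Cd63 (-0.13, SE 0.23, adjusted p = 0.856). Gpnmb had too few UMIs to be tested there. Epithelial RNA scaled by marker level would account for 61.1% and 45.0% of the Cd9 level in the Mrc1 state of Progesterone 2 and 3 and for 64.3% in Placebo 2. All 4 calls were lost when no filter on low counts was applied (smallest adjusted p = 0.282), and Spp1 (2.62, adjusted p = 0.630), Fabp5 (-0.90, adjusted p = 0.081) and Cd9 (0.84, adjusted p = 0.110) lost theirs when the 10 genes were let into the clustering. Spp1 also lost it at 500 genes per cell (3.46, adjusted p = 0.738) and Cd9 in DESeq2 (1.02, adjusted p = 0.109).

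**Figure D4:**
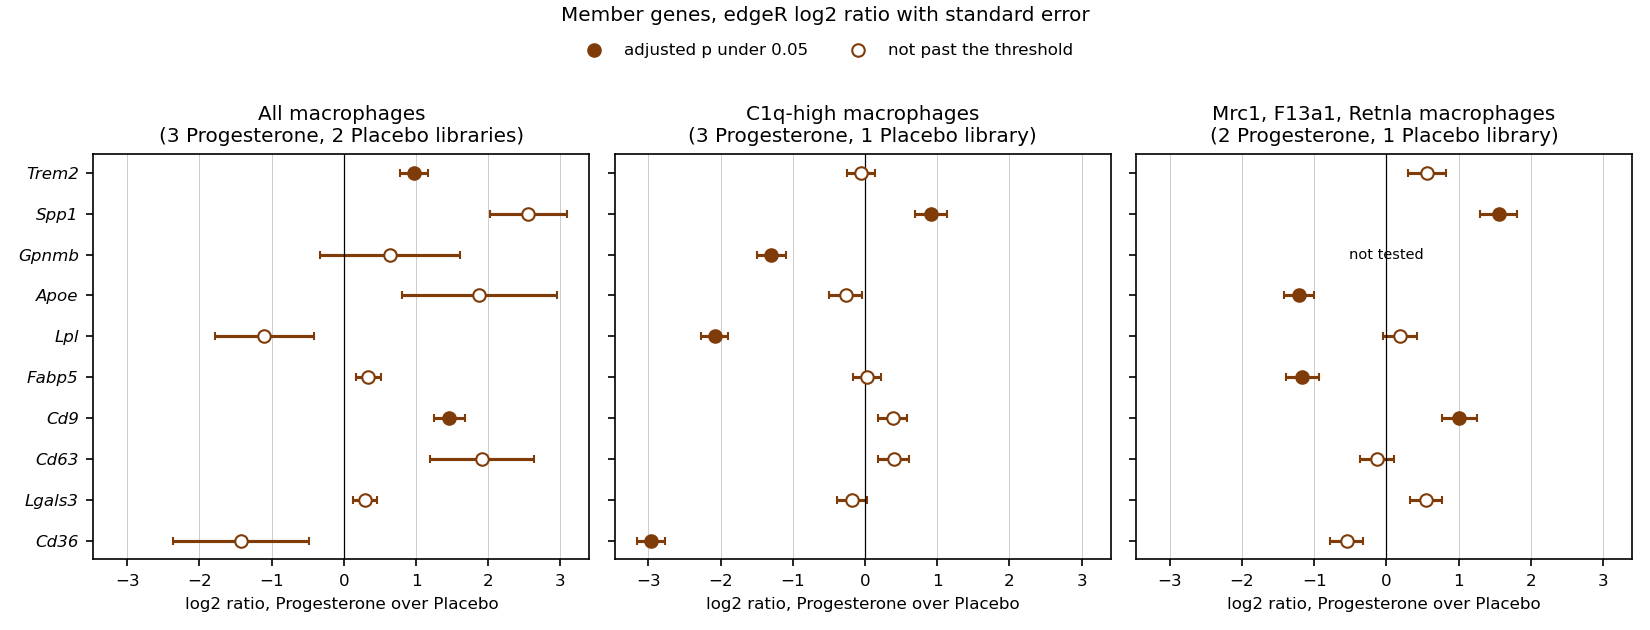
Log2 ratio of progesterone over placebo for each gene (edgeR, with SE as bars and filled points for adjusted p under 0.05) in macrophages, C1q-high cells and the Mrc1 state. Spp1 is positive in all 3, Lpl and Cd36 are most negative in C1q-high cells, and Trem2 is near 0 in C1q-high cells.

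Leaving out the monocyte-like cluster, a choice made after the data were seen, sets Progesterone 2 and 3 against Placebo 2 because Placebo 1 then has 1 cell. Of 12351 genes tested 20.3% passed, and 9.38% did so with a higher level under progesterone. Of the 10 genes, 5 were higher (Trem2 0.92, Spp1 2.15, Apoe 0.83, Cd9 1.24 and Cd63 1.25 on the log2 scale) and 2 were lower (Lpl -1.63 and Cd36 -2.44). These cells mix the C1q-high clusters and the Mrc1 state in the shares given above.

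Differences between classes were not tested, and other classes are given by their own values. Placebo 1 had 5 fibroblasts and 1 epithelial cell, so the calls in these classes set Progesterone 2 and 3 against Placebo 2 alone (1 residual degree of freedom), and values of Progesterone 1, which has no placebo partner there, are given beside them as a description. In fibroblasts 3 of 9 genes tested passed, all higher with progesterone, where 3.20% of 11609 genes passed, 1.96% higher and 1.23% lower. Spp1 had 36.5, 1894 and 1074 CPM in fibroblasts of Progesterone 1, 2 and 3 and 198 CPM in those of Placebo 2 (log2 ratio 3.06, SE 0.35, adjusted p = 0.0042), so Progesterone 1 lay below Placebo 2 and the other progesterone libraries above it. The top 10% of the fibroblasts held nearly all of it, 7 of 70 cells with 97.3% and 14 of 140 cells with 95.8% of the Spp1 UMIs in Progesterone 2 and 3, and 35 of 350 cells with 98.4% in Placebo 2. Macrophage markers in fibroblasts summed to 55.8, 211 and 212 CPM with progesterone and 305 CPM in Placebo 2, and their part in the Spp1 difference was not tested. Lgals3 had 138, 254 and 357 CPM with progesterone and 141 CPM in Placebo 2 (1.30, SE 0.24, adjusted p = 0.0237). Trem2 passed (2.43, SE 0.54, adjusted p = 0.035) on 36, 5 and 11 UMIs with progesterone and 2 UMIs in Placebo 2, but did not pass in 4 of the 7 alternatives that gave an adjusted p, among them the fit without Progesterone 1 (2.61, adjusted p = 0.188), and over these its log2 ratio lay between 0.84 and 4.12.

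In epithelial cells 49.9% of 16383 genes passed, so a call there says little about the 10, of which 5 passed. Cd63 had 403, 637 and 621 CPM in epithelial cells of Progesterone 1, 2 and 3 and 969 CPM in those of Placebo 2 (log2 ratio -0.77, SE 0.11, adjusted p = 1.1e-05), and Lgals3 had 168, 268 and 268 CPM with progesterone and 374 CPM in Placebo 2 (-0.63, SE 0.11, adjusted p = 5.2e-05). Progesterone 2 and 3 lay below Placebo 2 for both genes. Gpnmb (1.13), Lpl (-1.71) and Cd36 (-3.21) passed on 6 to 94 UMIs per library of batch 2 over 2866 to 3296 cells. Cd9 did not pass, with a log2 ratio of 0.32 (SE 0.13, adjusted p = 0.054). In conventional dendritic cells 0.326% of 8289 genes passed, 0.145% higher and 0.181% lower, and of 8 of the 10 genes tested Cd36 passed (-2.34, SE 0.44, adjusted p = 0.0448), at 29.4, 15.0 and 12.5 CPM with progesterone and 13.9 (1 UMI) and 106 CPM with placebo. Cd36 did not keep that call in 6 of 13 alternatives. Among them were the fits without Progesterone 2 (-1.86, adjusted p = 0.394) and without Progesterone 3 (-1.73, adjusted p = 0.713). The others were DESeq2, no batch term, doublets kept and the 10 genes in the clustering. In 1 further alternative, without Placebo 2, the ratio turned positive (1.02).

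In single cells, shares with a UMI were compared after thinning each cell to 2000 UMIs, which kept 317 of 340, 1004 of 1006 and 632 of 642 macrophages of Progesterone 1, 2 and 3 and 15 of 16 and 617 of 638 of Placebo 1 and 2. Intervals and limits here cover counting error only. Trem2 was detected in 21.1%, 51.1% and 48.6% of macrophages of Progesterone 1, 2 and 3 (exact 95% intervals 16.8 to 26.0%, 48.0 to 54.2% and 44.6 to 52.6%) and in 13.3% and 30% of those of Placebo 1 and 2 (1.66 to 40.5% and 26.4 to 33.8%). In T cells, which should lack it, the share was 0.711%, 0 and 0 with progesterone and 0.0246% and 0 with placebo. Without thinning it was 53.5%, 83.8% and 81.0% of macrophages with progesterone and 43.8% and 61.0% with placebo. Median depth was 17893, 13066 and 11662 UMIs in macrophages with progesterone and 19936 and 12665 with placebo, and 8353, 4229 and 4486 in T cells with progesterone and 8223 and 4859 with placebo. Trem2 detection in macrophages was thus above that in T cells in every library.

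Spp1 was detected in 42.6%, 64.7% and 51.6% of macrophages of Progesterone 1, 2 and 3 and in 13.3% and 23.0% of those of Placebo 1 and 2, against 5.21%, 5.26% and 1.79% of T cells with progesterone and 0.0985% and 2.52% with placebo. Unthinned it was in 63.8%, 78.4% and 68.2% of macrophages with progesterone and 12.5% and 33.9% with placebo. Cd9 gave another picture: 36.9%, 72.3% and 71.5% of macrophages with progesterone and 6.67% and 41.2% with placebo, against 6.87%, 60.5% and 37.5% of T cells with progesterone and 5.81% and 27.7% with placebo, so T cells of Progesterone 2, whose Cd9 was mostly at the level implied by epithelial RNA, showed it nearly as often as macrophages. Unthinned, Cd9 was in 71.8%, 97.3% and 95% of macrophages with progesterone and 31.2% and 83.4% with placebo. Gpnmb was detected in 8.20%, 4.68% and 5.54% of macrophages with progesterone, and in 0 of 15 cells and 3.08% with placebo, where 0 of 15 allows a share of up to 20%. Unthinned it was in 20%, 10.9% and 11.1% of macrophages with progesterone and 6.25% and 7.52% with placebo.

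Cells differed in how many of the 10 they showed. Macrophages had a mean of 3.13, 4.84 and 4.63 of the 10 genes with a UMI in Progesterone 1, 2 and 3 and 1.80 and 3.59 in Placebo 1 and 2. Within cluster 1 the mean was 4.52, 5.51 and 5.48 with progesterone and 5.36 in Placebo 2, and within the Mrc1 state it was 2.52 and 2.56 in Progesterone 2 and 3 and 2.93 in Placebo 2. Among the thinned cells, those showing 8 or more of the 10 were few. They numbered 0, 30 and 19 in Progesterone 1, 2 and 3 and 0 and 15 in Placebo 1 and 2. Without thinning such cells were more common, at 16.5%, 24.6% and 19.8% of macrophages in Progesterone 1, 2 and 3. In Placebo 1 and 2 they were then 0 and 17.9% of macrophages. The difference over all macrophages of batch 2 was larger than those within cluster 1 and the Mrc1 state. It was also larger than in monocyte-like cells, with 3.18 and 2.94 in Progesterone 2 and 3 and 2.48 in Placebo 2. The same held for cluster 4, with 5.21 in both progesterone libraries and 4.875 in Placebo 2. The cycling cluster differed more, with 4.43 and 4 in Progesterone 2 and 3 and 2.625 in Placebo 2, on 53, 30 and 24 cells.

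Pairs of genes were then read in the same cells. Trem2 and Spp1 occurred together in 13.2%, 38.3% and 29.1% of macrophages of Progesterone 1, 2 and 3 and in 10.7% of those of Placebo 2, which is 1.47, 1.16 and 1.16 times the product of their single shares with progesterone and 1.55 times with placebo. Taken within clusters, the ratio was 1.35, 1.07 and 1.04 with progesterone and 1.04 in Placebo 2, so it stayed above 1.3 in Progesterone 1 and was under 1.1 in the libraries of batch 2. Spp1 and Gpnmb occurred together in 5.36%, 4.08% and 4.75% of macrophages with progesterone and 2.59% in Placebo 2, at 1.54, 1.35 and 1.66 times the product with progesterone and 3.66 times in Placebo 2, and within clusters at 1.53, 1.21 and 1.40 times with progesterone and 1.88 times in Placebo 2. The within-cluster ratio of Spp1 and Gpnmb was above 1 in these 4 libraries and rests on 16 to 41 cells with both.

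Lpl and Cd36 formed another pair. They occurred together in 0 of 317, 13 of 1004 and 5 of 632 macrophages of Progesterone 1, 2 and 3 and in 35 of 617 of Placebo 2. That is 3.79 and 2.11 times the product of the single shares in Progesterone 2 and 3 and 1.81 times in Placebo 2, and within clusters 2.36 and 1.27 times in Progesterone 2 and 3 and 1.5 times in Placebo 2. Apoe and Lpl met less often than the product in batch 2, at 0.815 and 0.854 times in Progesterone 2 and 3 and 0.730 times in Placebo 2, and at 1.15 times on 3 cells in Progesterone 1.

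Across macrophages of 4 libraries (340 to 1006 cells each, sharing library, depth and cluster makeup), log-scaled levels gave the same grouping. The mean Pearson r over libraries was 0.72 for Apoe and Cd63, 0.64 for Trem2 and Cd63 and 0.63 for Trem2 and Apoe, the 3 highest of 45 pairs. Lpl and Cd36 had a mean r of 0.25 with each other and of -0.11 each with Apoe, though in Progesterone 1 the r of Apoe with Lpl was 0.18. Spp1 had r of 0.39 with Trem2 and 0.42 with Cd63, and Gpnmb had its highest r with Fabp5 at 0.33.

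**Figure D5:**
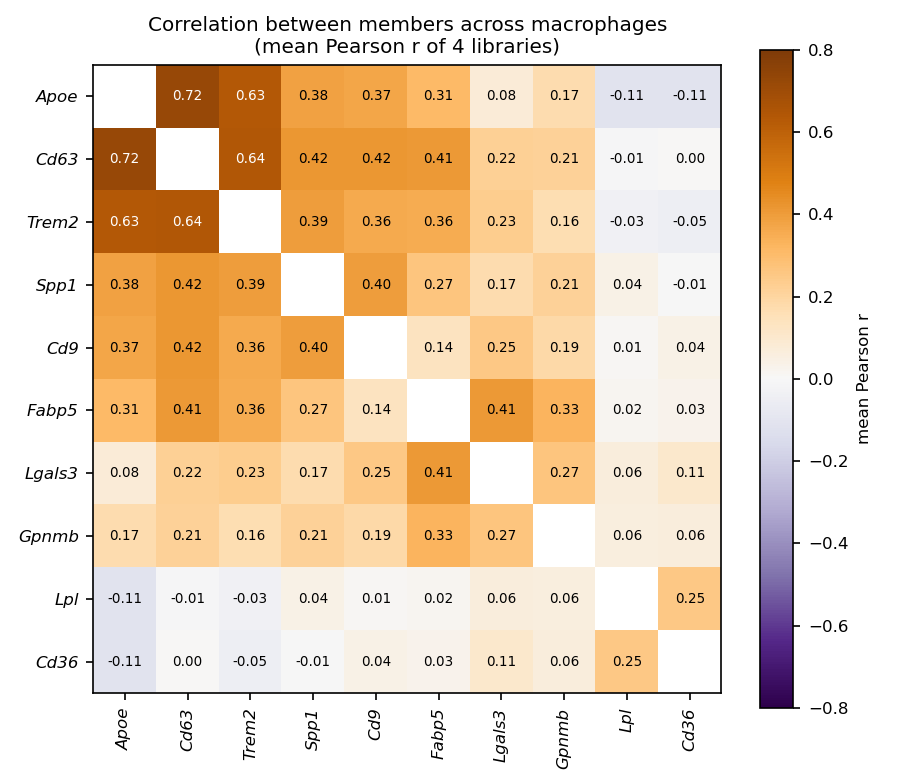
Mean Pearson r over 4 libraries for each pair of the 10 genes across macrophages (log-scaled UMIs). Apoe, Cd63 and Trem2 form the block of highest r, and Lpl and Cd36 sit apart from it with r near or below 0.

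Of 8725 other genes, those most like Trem2 across macrophages included C1qc (mean r 0.64), Ms4a7 (0.61), C1qb (0.61) and Rgs10 (0.60). Those most like Spp1 included the chemokine gene Cxcl14 (0.39), the cathepsin genes Ctsd (0.38) and Ctsb (0.37) and the matrix protease gene Mmp14 (0.37). Gpnmb was most like Syngr1 (0.30), Ctsb (0.24), Ctsd (0.24), Pld3 (0.23) and the lipid droplet coat gene Plin2 (0.22). Over 36 sums by class and library, which share depth and cell makeup, Pearson r with 9232 other genes was highest for these 3 of each. For Trem2 they were C3ar1 (0.91), Fcgr1 (0.88) and Mcub (0.87), and for Apoe Igf1 (0.85), Lgmn (0.84) and Ccl7 (0.83). For Spp1 they were Metrnl (0.87), Emilin2 (0.81) and Lrmda (0.81), and for Gpnmb Chil3 (0.85), Retnla (0.77) and Hal (0.74). The lipid genes were most like Pmp22 (0.91), Vcan (0.91) and Colec12 (0.89) for Lpl and Apold1 (0.82), Arhgdia (0.75) and Sowahc (0.74) for Cd36. Fabp5 was most like Cyba (0.83), Sh3bgrl3 (0.78) and Capzb (0.78), and Lgals3 most like Smim3 (0.79), Tspo (0.76) and Adssl1 (0.75). The tetraspanin genes were most like Pdlim7 (0.91), Txn1 (0.90) and S100a11 (0.90) for Cd9 and Anxa3 (0.93), Il13ra1 (0.90) and Bsg (0.90) for Cd63.

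The genes around the 10 were read from lists of the same pathways. In macrophages as a whole, none of 10 TREM2 signalling genes, 15 lipid uptake and storage genes, 7 genes of the MiT/TFE factors that drive lysosome genes, 9 genes of PPAR factors and their targets and 8 other genes of disease-associated microglia passed. The cholesterol exporter gene Abca1 rose among 10 sterol efflux genes, at 705, 920.2 and 1113 CPM in Progesterone 1, 2 and 3 and 333 and 627 CPM in Placebo 1 and 2 (log2 ratio 0.86, SE 0.18, adjusted p = 0.0454). Each progesterone library was higher than the placebo library of its batch. The integrin gene Itgb5 rose among 8 osteopontin receptor genes (1.25, SE 0.21, adjusted p = 0.0171).

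Of 8 monocyte genes 4 fell in macrophages and none rose, among them Ly6c2 (log2 ratio -2.58), Plac8 (-1.33) and Ccr2 (-1.25). Ly6c2 had 194, 12.3 and 9.35 CPM in Progesterone 1, 2 and 3 and 1293 and 62 CPM in Placebo 1 and 2. Summed monocyte markers were 2035, 345 and 432 CPM with progesterone and 5834 and 891 CPM with placebo, so the fall stood beside the rise of Trem2 and Cd9 in the same cells, and its part in that rise was not tested. None of 5 keratin and Epcam genes that mark tumour RNA and none of 13 dissociation stress genes passed.

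Within C1q-high cells, 1.91% of all genes tested were called higher and 2.46% lower, and the lists are set beside these shares. Of 15 lipid uptake and storage genes 3 fell and 1 rose: the fatty acid carrier gene Fabp4 had 13.1 and 6.5 CPM in Progesterone 2 and 3 and 42.1 CPM in Placebo 2 (log2 ratio -1.97, SE 0.24, adjusted p = 3.5e-13), the lipid droplet gene Hilpda had a ratio of -0.98 and the scavenger receptor gene Msr1 of -0.79, and Dgat1, a triglyceride synthesis gene, of 0.87. Of 10 sterol efflux genes Pltp (-0.96) and Apoc1 (-0.92) fell, and of 19 lysosomal genes Ctsk (-1.66), Atp6v0d2 (-1.5) and Ctsl (-0.70) fell. Itga4 rose among 8 osteopontin receptor genes (1.05) and Ccl6 fell among 8 microglia genes (-1.48). None of 10 TREM2 signalling, 7 MiT/TFE, 9 PPAR or 7 monocyte genes passed there. The stress genes Egr1 (-1.69), Ier3 (-0.67) and Fos (-0.62) fell among 13, and Krt18 (-0.69) fell among 5 tumour RNA genes, so signs of handling and of free RNA moved with the lipid genes and their part was not tested. The median log2 ratio was 0.11 over the lipid uptake list and -0.40 over the stress list, against 0.01 over all genes tested.

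In the Mrc1 state the lists moved in both directions. Of 13 lipid uptake genes Dgat1 (1.05) and Olr1 (0.84) rose and Fabp4 (-1.48) and Msr1 (-1.44) fell, and of 8 sterol efflux genes the exporter gene Abcg1 rose (1.73) and Scd2 fell (-0.96). Of 17 lysosomal genes the protease genes Lgmn (-1.39) and Ctsb (-0.77) fell. Of 10 TREM2 signalling genes the kinase gene Syk rose (0.72), and of 7 osteopontin receptor genes Itga4 rose (0.82) and Itga9 fell (-2.36). Of 6 microglia genes Itgax (1.20) and Cd83 (0.77) rose and Igf1 fell (-2.21), of 7 MiT/TFE genes Tfec fell (-1.96), and of 5 monocyte genes Hp (1.98) and F10 (0.90) rose, while none of 7 PPAR genes passed. Egr1 (-1.42) and Ier3 (-0.92) fell among 13 stress genes and Krt18 (-0.71) among 5 tumour RNA genes, and their part was not tested.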

How the data were processed

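Single-cell RNA of 5 tumour libraries was read with 10x 3' chemistry (version 3.1). The deposited values are raw UMI counts per gene and cell, made by the authors with Cell Ranger, version 8.0.1 per the file headers and 7.0.0 per the submitters' processing notes, which also name mm10. Cells with under 250 genes and called doublets (1.78% to 4.68% of barcodes) were removed. Cells were clustered with scanpy 1.11.5 (2000 variable genes without the 10 genes, 30 components, Leiden resolution 1.0, and 0.3 for macrophage states) and named from markers. Low-UMI clusters of 1690, 974, 691, 301, 49 and 21 cells stayed unnamed, and 127 cells first put with macrophages were unnamed later. The 691 were led by Ccl8, Pf4 and C1qb and included 61 cells of Placebo 1. Macrophage counts and shares, above all in Placebo 1, depend on leaving them out. UMIs were summed per library and class of at least 10 cells and tested with edgeR 4.0.16 (quasi-likelihood, TMM, filter on low counts, prior count 2), batch as block, adjusted over all genes. The pairing by batch comes from the labels. Exact permutation within batches has 6 arrangements, too few to reach 0.05, so none is given.

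All 10 genes are named in each class, and from each gene list and likeness ranking the genes past the rule, a few of which are not reported here. The members and lists were chosen with earlier results of these data known. Alternatives were DESeq2 1.42.0, RLE factors, no filter, no block, batch 2 alone, each library left out, the 10 genes in the clustering, doublets kept, thinned sums and 500 genes per cell. The test in macrophages as a whole was tried on simulated counts with no batch effect and no difference in cell makeup. That trial does not cover the fits with a single placebo library.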

Additional observations from a re-analysis of the deposited data

Results flagged for a closer look

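The following differences were picked out because every progesterone library of batch 2 moved one way in one class and the other way in another, and the difference itself was not tested. Values are mean log2 ratios of Progesterone 2 and 3 over Placebo 2 within the batch. Cd63 had 0.42 in C1q-high cells and -0.18 in the Mrc1 state, and Lgals3 had -0.15 in C1q-high cells and 0.48 in the Mrc1 state. Cd63 had 1.23 in macrophages and -0.78 in epithelial cells, and Lgals3 had 0.28 in macrophages and -0.63 in epithelial cells. Cd9 had 1.20 in macrophages and -0.10 in fibroblasts. Cd36 in macrophages turned between batches, with 1.04 in batch 1, where Placebo 1 had 14 Cd36 UMIs, and a mean of -2.36 in batch 2. This difference was not tested either.

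Apoe appeared in a class outside the comparisons at a level above the control libraries. It was picked out because the counting intervals with progesterone lay above those with placebo. B cells had 420.0 and 516 CPM of Apoe in Progesterone 1 and 2 (1086 and 39 UMIs in 214 and 14 cells). In Placebo 1 and 2 they had 128 and 213 CPM (172 and 67 UMIs in 161 and 57 cells). T cells had 81.9, 112 and 60.7 CPM of Apoe in Progesterone 1, 2 and 3 and 2.21 and 37.3 CPM in Placebo 1 and 2. The part of free macrophage RNA in these levels was not tested.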

How the results depend on the processing

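In macrophages 130 genes passed, against 779 with no filter, 1506 in batch 2 alone, 6 with doublets kept, 12 with thinned sums, 2512 without the monocyte-like state (an alternative added after the data were seen) and 72 to 1802 with 1 library left out. Without the replicate block by batch, edgeR called 0 genes in macrophages (511 at an unadjusted p under 0.05), 0 in fibroblasts (267), 0 in conventional dendritic cells (324), 0 in C1q-high cells (391) and 873 in epithelial cells. DESeq2 called 4431 genes against 8176 in epithelial cells, 94 against 371 in fibroblasts, 15 against 27 in conventional dendritic cells, 61 against 492 in C1q-high cells and 40 against 421 in the Mrc1 state. With thinned sums the counts were 3332 in epithelial cells, 4 in conventional dendritic cells, 264 in C1q-high cells and 224 in the Mrc1 state. Fibroblasts had 798 with no filter and 806 with doublets kept. Conventional dendritic cells had 208 with no filter, 554 in batch 2 alone, 1 with doublets kept, 266 at 500 genes and 41 to 643 with 1 library left out. The Mrc1 state had 0 with no filter (1231 unadjusted) and 86 with the 10 genes in the clustering. The mean number of the 10 genes detected per macrophage was 3.60 at 2000 UMIs and 5.43 with no thinning.

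These log2 ratios changed sign. In macrophages Gpnmb was -0.13 in batch 2 alone and -0.040 without the monocyte-like state, and ranged from -0.14 to 5.44 with 1 library left out. Lpl was 0.085 in DESeq2 and ranged from -1.56 to 6.15 with 1 library left out, and Cd36 from -2.35 to 1.07. Lpl was 0.042 in fibroblasts and Cd63 0.11 in the Mrc1 state with doublets kept. Fabp5 in C1q-high cells was -0.26 without the block and -0.056 at 500 genes. In conventional dendritic cells, at 500 genes, Trem2 was -0.33, Apoe -2.46 and Cd9 0.026, and in batch 2 alone Apoe was -0.19, Cd9 0.15 and Cd63 0.32. With 1 library left out, values there ranged from -0.28 to 5.79 for Apoe, from -0.99 to 0.19 for Cd9, from -2.19 to 0.36 for Cd63 and from -2.79 to 1.02 for Cd36. The cause was not tested. Of the log2 ratios of the 10 genes in macrophages under other settings, 27 passed where the reported one did not, 7 no longer passed and 7 changed sign, and the rest kept direction and side of the threshold. These settings are not separate checks. Batch 2 alone, and the fits without Placebo 1, Progesterone 1 or the monocyte-like state, all set Progesterone 2 and 3 against Placebo 2 alone.

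Leaving out Progesterone 2 or Progesterone 3 was not run for C1q-high cells, the Mrc1 state, epithelial cells and fibroblasts, which leaves no residual degree of freedom. Leaving out Placebo 2 was not run there either, because no placebo library with enough of these cells then remains. Placebo 1, with 16 macrophages, limits every macrophage value of batch 1.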
